A study of Homo sapiens with 6 samples.

Results

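The 183 microRNA genes described here are those whose array signal was clearly above the level of most microRNA probe sets in HK2 cells. They were selected on their level, from the 1072 microRNA genes named on the array. A gene entered when its log2 value, averaged over all 6 arrays, was at least 6, and the probe set with the highest mean stood for a gene with more than 1. Of the 190 genes at that level, 7 were left out: they belong to a list of 9 (MIR205, MIR146A, MIR3142, MIR221, MIR222, MIR25, MIR93, MIR106B and MIR3189) that was set aside with their results known. All 7 passed the test between the groups, 4 of them higher and 3 lower, so the counts below describe what remains after known changes were taken out.

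HK2 is an immortalised epithelial line of human kidney proximal tubule origin. In the tested cells a pLKO.1 lentivirus delivered an shRNA against PGC-1alpha, a coactivator of mitochondrial gene expression, and in the control cells the same vector delivered an shRNA against GFP, a protein foreign to human cells. Cells of both groups grew in DMEM with serum, went through puromycin selection and were harvested on day 5, which was 24 hours after selection ended. Each group has 3 arrays labelled as biological replicates, and nothing in the labels says whether they came from separate transductions, so p-values cover only the spread among these samples, which may be technical. PPARGC1A, which encodes PGC-1alpha, is not among the genes named here, so the knockdown itself was not checked.

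A microRNA starts as part of a longer primary transcript, which is often the intron of a host gene. In the nucleus the Microprocessor (DROSHA with DGCR8) cuts out a hairpin precursor, exportin-5 carries it to the cytoplasm, and DICER1 cuts it to a short duplex from which an Argonaute protein takes one strand. Bases at the start of that mature strand, the seed, pair with target messenger RNAs, which are then repressed. The biotin-labelled RNA on these arrays was made from purified total RNA by a protocol for long transcripts, so a probe set over a microRNA gene can bind the primary transcript, the precursor or the host RNA. The values are therefore not levels of mature microRNAs. RNA from fewer cells and less RNA per cell cannot be told apart in bulk samples.

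The sequences below are those of the microRNAs that the results turn on, from RefSeq on GRCh38.p14, which held 170 of the 183 genes, 151 of them with a hairpin and 165 with a mature sequence. Mature strands are written 5′ to 3′ with the seed, bases 2 to 8, in capitals. The first group holds the microRNAs with the 3 largest differences between the groups and 2 others that passed in every single-array omission.
hsa-miR-4521: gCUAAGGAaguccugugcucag
hsa-miR-604: aGGCUGCGgaauucaggac
hsa-miR-3198: gUGGAGUCcuggggaauggaga
hsa-miR-573: cUGAAGUGauguguaacugaucag
hsa-miR-4653-5p: uCUCUGAGcaaggcuuaacacc
The second group shows the let-7 members, which share the seed GAGGUAG and of which 2 passed the test between the groups.
hsa-let-7d-5p: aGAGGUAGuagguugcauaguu
hsa-let-7i-5p: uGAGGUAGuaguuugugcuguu
hsa-let-7e-5p: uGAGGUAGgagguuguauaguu
hsa-let-7a-5p: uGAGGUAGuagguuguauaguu
hsa-miR-98-5p: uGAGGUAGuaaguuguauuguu
The third group shows the miR-181 members, among them miR-181b, whose mature strand is encoded by both MIR181B1 and MIR181B2.
hsa-miR-181b-5p: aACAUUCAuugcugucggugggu
hsa-miR-181c-5p: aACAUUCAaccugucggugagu
hsa-miR-181d-5p: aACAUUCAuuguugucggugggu
The fourth group pairs miR-330 with the other member that shares its seed.
hsa-miR-330-5p: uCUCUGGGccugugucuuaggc
hsa-miR-326: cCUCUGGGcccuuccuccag

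Hairpins are shown for 3 genes that differed clearly between the groups and lie in different kinds of locus, with the mature strand in capitals where the table gives one. MIR4521 lies outside annotated genes at chr17:8186945-8187004 on the plus strand, MIR3143 outside genes at chr6:27147626-27147688 on the plus strand beside the histone genes H2BC12 and H2AC12, and MIR3198-1 in the gene BID at chr22:17764180-17764259 on the minus strand.
MIR4521 hairpin: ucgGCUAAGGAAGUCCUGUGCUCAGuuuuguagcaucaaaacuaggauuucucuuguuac
MIR3143 hairpin: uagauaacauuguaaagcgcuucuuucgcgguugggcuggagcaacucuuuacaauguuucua
MIR3198-1 hairpin: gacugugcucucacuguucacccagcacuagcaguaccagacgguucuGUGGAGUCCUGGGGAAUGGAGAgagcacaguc

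The level chose the members, so their levels are given as a description. Their means over the 6 arrays lay between 6.002 and 10.8 with a median of 6.78 (log2 RMA value), against a median of 3.44 for the 882 microRNA genes under 6 and 6.15 for all 14884 named genes. Most sat near the lower edge: 63 had means of 6 to under 6.5, 46 of 6.5 to under 7, 49 of 7 to under 8, 19 of 8 to under 9, and 6 of at least 9. Just inside the limit were MIR4502 at 6.002, MIR181B2 at 6.01 and MIR107 at 6.01, and just outside were MIR1204, MIR30C2 and MIR151B, each at 5.97. Both group means reached 6 in 169 members, the shPGC-1alpha mean alone in 5 and the shGFP mean alone in 9. The files hold no detection calls, and levels of different probe sets cannot be ordered against each other as amounts of RNA.

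The brightest member was MIR4737, in HEATR6, with a mean of 10.8. It had 10.79, 10.61 and 10.75 with shPGC-1alpha, against 10.79, 10.78 and 11.002 with shGFP, and the groups overlapped. MIR196B, which lies in the HOXA cluster, had 9.74, 9.47 and 9.14 with shPGC-1alpha, against 9.86, 9.78 and 9.88 with shGFP. Its groups did not overlap, but the difference of -0.39 (SE 0.14) did not pass (limma adjusted p 0.0974). MIR574, inside FAM114A1, averaged 9.53 ± 0.31 with shPGC-1alpha and 9.53 ± 0.08 with shGFP (SD, n = 3 each). MIR21, a microRNA widely raised in injured kidney, had 9.30, 9.18 and 9.30 with shPGC-1alpha, against 9.09, 9.06 and 9.21 with shGFP. These arrays overlapped, and the difference of 0.13 (SE 0.07) did not pass (adjusted p 0.253). The others of the 10 brightest were MIR3143, MIR4521, MIR3916, MIR3907, MIR4533 and MIR663B, with means of 8.63 to 9.18.

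**Figure D1:**
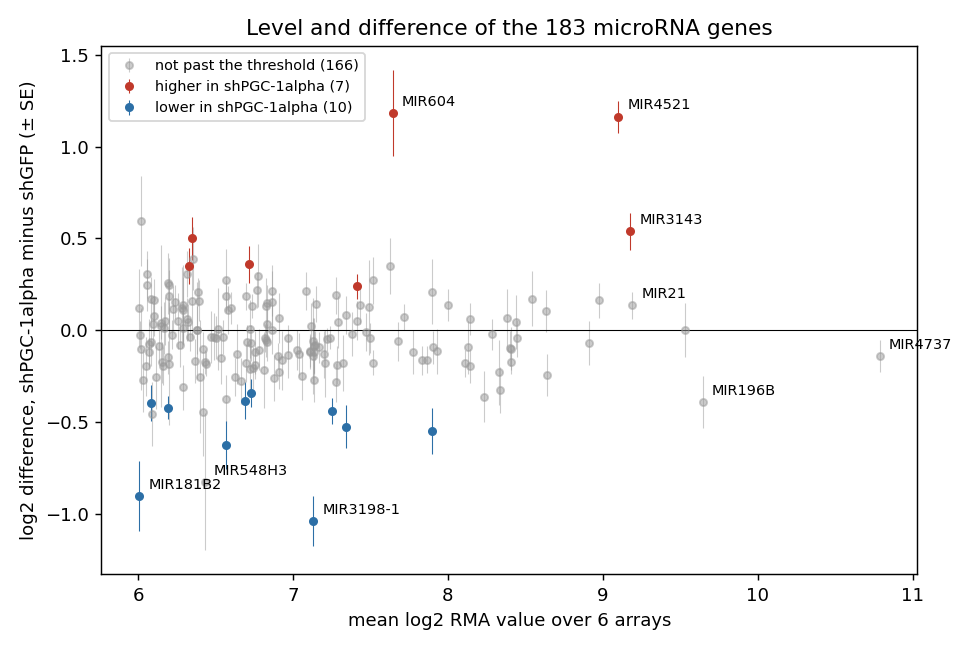
The log2 difference, shPGC-1alpha minus shGFP (vertical, with its SE), of each of the 183 microRNA genes against its mean log2 RMA value over 6 arrays (horizontal). Red points are the 7 genes past the threshold that were higher and blue points the 10 that were lower. Most genes lie within 0.5 of 0 at every level, and MIR604, MIR4521 and MIR3198-1 lie beyond 1.

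The labelled cell type was checked against markers. PAX8, a kidney epithelial transcription factor, had a mean of 11.6, and PAX2 one of 5.52. Of 10 proximal tubule markers 6 were measured: DPP4 at 10.5, MME at 7.46, AQP1 at 5.97, ANPEP at 4.64 and the endocytic receptors LRP2 and CUBN at only 3.97 and 3.92. With shPGC-1alpha PAX8 was 0.38 higher (log2, limma adjusted p 0.00645), MME and DPP4 were lower, at -0.61 and -0.27 (adjusted p 0.00113 and 0.0255), and PAX2, AQP1, ANPEP, LRP2 and CUBN did not pass. The summed level of the 6 tubule markers (log2) was 10.59 to 10.72 with shPGC-1alpha and 10.91 to 10.96 with shGFP. That sum was taken on the linear scale and is mostly DPP4, so it says little about the dimmer markers. The endothelial markers PECAM1 and VWF lay at 3.60 and 4.76. Of 5 measured epithelial markers out of 6, 3 were lower with shPGC-1alpha, KRT19 by a log2 difference of -1.42, and their summed level (log2) was 10.29 to 10.35 with shPGC-1alpha and 10.98 to 11.05 with shGFP. Of 4 leukocyte markers, 2 were measured, CD68 at a mean of 11.3 and CD14 at 4.48. CD68 was 0.34 higher (log2) with shPGC-1alpha (limma adjusted p 0.00895). Of 6 mesenchymal markers only VIM was measured, at 10.5, and of 6 markers of other nephron segments only AQP2, at 6.13. Neither VIM nor AQP2 passed. The part of these markers in the microRNA results was not tested.

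One control array stood apart for some members. In 16 of the 183, shGFP replicate 1 lay more than 0.5 log2 units from both other shGFP arrays, 15 times as the highest, against 1 to 4 members for each other array. MIR4295 had 7.31 in shGFP replicate 1 and 5.67 and 5.43 in the others, while its shPGC-1alpha arrays had 6.15, 6.17 and 6.17. With all arrays its difference was 0.02, and without that array it was 0.61 (limma adjusted p 0.00816). MIR548H3 had 6.13, 5.96 and 5.97 with shPGC-1alpha, against 7.83, 6.26 and 6.45 with shGFP. Its difference was -0.83 with all arrays and -0.33 without shGFP replicate 1, and neither passed. The count of members that passed is therefore given with and without this array, and the other counts are given with all arrays.

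The comparison asks which microRNA loci differ when HK2 cells carry the PGC-1alpha shRNA. Of the 183 members 17 passed an adjusted p of 0.05, 7 higher and 10 lower with shPGC-1alpha. That is 9.29% of the members, with 3.83% higher and 5.46% lower. Over all 14884 named genes the share was 21.8%, with 9.58% higher and 12.2% lower, and over the 7647 other named genes with a mean of at least 6 it was 34.4%. With the 7 left-out genes counted back in, 24 of 190 microRNA genes passed, or 12.6%, and of the 882 microRNA genes under 6 it was 4.99%. In 36 members, or 19.7%, no array of one group overlapped with the other group. That share was 38.7% of all named genes and 57.6% of the other named genes with a mean of at least 6. Of these members 13 were higher and 23 lower with shPGC-1alpha, against 17.2% higher and 21.5% lower among all genes. The median log2 difference was -0.04 over the members and -0.02 over all genes. Of the members 76 lay above 0 and 107 below, against 6983 and 7901 of all genes. The sign is tied to the choice by level in 9 members whose shGFP mean alone reached 6. The same holds for 5 members whose shPGC-1alpha mean alone did. The median and the counts by direction include these members. The median size of a difference was 0.141 in the members, 0.143 in all genes and 0.180 in the other named genes with a mean of at least 6. The median SE was 0.117, 0.0876 and 0.0753 in the same order. Without shGFP replicate 1, 14 members passed, 7 higher and 7 lower, of which 11 were among the 17. Of all named genes 2538 passed without that array, against 3243 with it. Of the 10 lower with all arrays, MIR181B2, MIR3135A and MIR3135B reached a mean of 6 only through their shGFP arrays. Their part in that count is therefore tied to the choice by level. In the 169 members with both group means at least 6, 14 passed with all arrays, among them all 7 that were higher.

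MIR4521 rose the most clearly. It had 9.55, 9.68 and 9.82 with shPGC-1alpha, against 8.56, 8.55 and 8.44 with shGFP. Every shPGC-1alpha array lay well above every shGFP array. The difference was 1.16 (SE 0.09), or 2.24-fold, with an adjusted p of 0.000208 in limma. A second probe set of this gene, at a lower mean of 4.02, differed by 1.18. RefSeq places 4 transfer RNA genes within 5 kb of it.

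MIR604, which lies in the gene of supervillin (SVIL), an actin-binding membrane protein, also rose. It had 8.41, 8.06 and 8.23 with shPGC-1alpha, against 7.62, 6.87 and 6.66 with shGFP. The groups did not overlap, but shGFP replicate 1 was well above the other control arrays. The difference was 1.18 (SE 0.23), or 2.27-fold, with an adjusted p of 0.0111, and it was 1.47 without that array. MIR3143 had 9.59, 9.37 and 9.38 with shPGC-1alpha, against 8.90, 8.77 and 9.06 with shGFP. The groups were separate, and the difference was 0.54 (SE 0.10, adjusted p 0.00874).

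The other 4 that rose did so by less, and their calls depended on single arrays. MIR877 is a mirtron, a hairpin released by splicing of a short intron, here of the gene ABCF1. It had 6.56, 6.44 and 6.79 with shPGC-1alpha, against 5.94, 6.08 and 6.27 with shGFP. The difference was 0.50 (SE 0.12, adjusted p 0.0214), and the 6 other probe sets of this gene, which hold identical values, gave 0.56. Its call was lost without shPGC-1alpha replicate 3, shGFP replicate 1 or shGFP replicate 2. MIR33B, which lies in an intron of the lipid regulator SREBF1 and is known to repress cholesterol export genes, had 6.44, 6.55 and 6.52 with shPGC-1alpha, against 6.30, 5.96 and 6.20 with shGFP. Its arrays were separate by a narrow margin, the difference was 0.35 (SE 0.10, adjusted p 0.0422), and the call held in only 1 of the 6 omissions of a single array, that of shGFP replicate 1. The remaining pair, MIRLET7D and MIRLET7I, is described with the let-7 family below.

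MIR3198-1 fell the most. It had 6.77, 6.45 and 6.62 with shPGC-1alpha, against 7.92, 7.57 and 7.46 with shGFP. Each shPGC-1alpha array was below each shGFP array. The difference was -1.04 (SE 0.14), or 2.06-fold lower, with an adjusted p of 0.00189. MIR181B2 had 5.78, 5.60 and 5.29 with shPGC-1alpha, against 6.85, 6.23 and 6.30 with shGFP. The control arrays were spread, with shGFP replicate 1 highest, and the difference was -0.90 (SE 0.19, adjusted p 0.0139). It was -0.71 without that array.

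MIR573, which lies outside annotated genes on chromosome 4, had 6.39, 6.17 and 6.21 with shPGC-1alpha, against 7.15, 6.83 and 6.67 with shGFP. The groups were separate and the difference was -0.63 (SE 0.13, adjusted p 0.0128). MIR4653, in the gene of the clathrin adaptor subunit AP1S1, had 7.04, 6.92 and 7.12 with shPGC-1alpha, against 7.48, 7.43 and 7.49 with shGFP. Its difference was -0.44 (SE 0.07, adjusted p 0.00516), while a second probe set gave -0.35 with arrays that overlapped. MIR3135B had 6.03, 6.004 and 5.92 with shPGC-1alpha, against 6.40, 6.41 and 6.42 with shGFP. The control arrays were almost equal, and the difference was -0.42 (SE 0.06, adjusted p 0.00321). Of its 5 probe sets 4 hold the same values, and the other gave -0.60.

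For 5 more members that fell, the call was lost when certain single arrays were left out. MIR570 had 7.63, 7.73 and 7.496 with shPGC-1alpha, against 8.41, 8.16 and 7.94 with shGFP, a difference of -0.55 (adjusted p 0.0194). MIR4324, in the gene of the transporter SLC6A16, had 7.08, 6.92 and 7.24 with shPGC-1alpha, against 7.81, 7.47 and 7.53 with shGFP, a difference of -0.53 (adjusted p 0.0185). In both genes the groups were separate. MIR3135A, in the gene of the histone acetyltransferase KAT2B, had 5.69, 6.02 and 5.95 with shPGC-1alpha, against 6.37, 6.28 and 6.20 with shGFP, a difference of -0.40 (adjusted p 0.0278). MIR622, inside the pseudogene KRT18P27, had 6.69, 6.32 and 6.48 with shPGC-1alpha, against 6.90, 6.81 and 6.93 with shGFP, a difference of -0.38 (adjusted p 0.0329). These groups were separate by narrow margins. MIR330, inside EML2, had 6.52, 6.68 and 6.47 with shPGC-1alpha, against 6.94, 6.86 and 6.90 with shGFP, a difference of -0.34 (adjusted p 0.0168). The omission of shPGC-1alpha replicate 1 or 3 lost the call of MIR570, MIR330 and MIR3135A, and that of shPGC-1alpha replicate 1 or 2 lost the call of MIR4324. The omission of shGFP replicate 2 lost that of MIR570 and MIR3135A, and that of shGFP replicate 1 that of MIR330 and MIR3135A. MIR330 was also lost without shGFP replicate 3, and MIR622 kept its call only when shPGC-1alpha replicate 1 was the array left out.

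**Figure D2:**
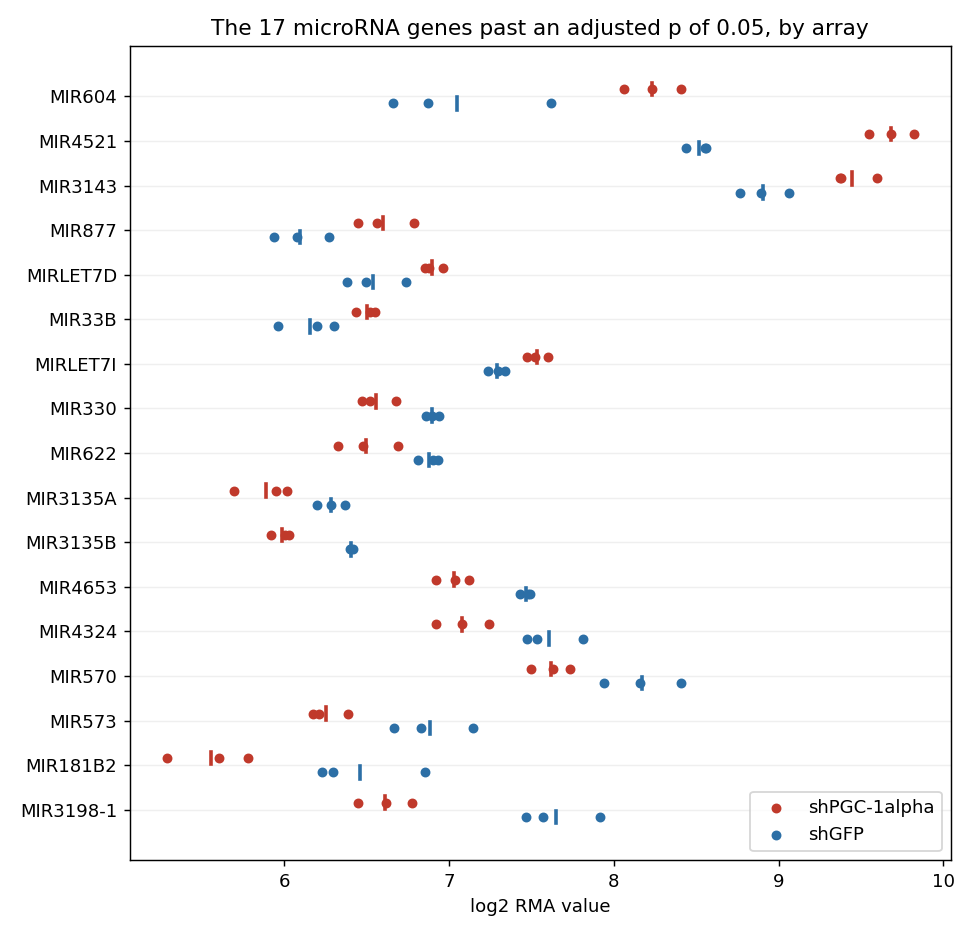
The log2 RMA value (horizontal) of the 17 microRNA genes past an adjusted p of 0.05, from the largest increase at the top to the largest decrease at the bottom. Points are single arrays, shPGC-1alpha in red above shGFP in blue, and bars are group means of 3 arrays. No gene has overlapping groups, and shGFP replicate 1 is the isolated blue point on the right in MIR604 and MIR181B2.

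Of the 17, MIR4521, MIR3198-1, MIR3135B, MIR4653, MIR3143, MIR604, MIR573 and MIR181B2 passed in each of the 6 fits that left out 1 array. The means of both groups were at least 6 in 14 of the 17, and the exceptions, MIR181B2, MIR3135A and MIR3135B, had shPGC-1alpha means of 5.56, 5.89 and 5.98.

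A microRNA inside a gene is often made from that gene's transcript, so each member was set beside its host. RefSeq placed 105 of the 170 members it held, or 61.8%, inside a gene on the same strand, against 54.3% of the microRNA genes under 6. A further 33 lay outside genes, 14 in a gene on the opposite strand and 18 in a gene whose strand the table does not give. For 66 members a same-strand host, 62 genes in all, was itself named on the array. The host passed the test in 18 of these pairs, 9 higher and 9 lower, and in 4 of the 18 the microRNA gene passed too. Counted once each, 17 of the 62 hosts passed, or 27.4%, against 21.8% of all named genes. In 10 of the 18 pairs the microRNA difference had the sign of its host's. Of the 4 pairs in which both passed, only MIR604 and SVIL went the same way. SVIL had 9.40, 9.47 and 9.48 with shPGC-1alpha, against 8.78, 8.41 and 8.41 with shGFP, a difference of 0.92 (SE 0.11, adjusted p 0.0013). In both genes of this pair shGFP replicate 1 was the highest control array. Across the 66 pairs, which share the same 6 arrays, the differences of microRNA and host were only weakly related (Pearson r 0.145, Spearman rho 0.123).

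The difference between a microRNA probe set and its host was then tested array by array over the 301 pairs of any named microRNA gene, of which 13 passed, or 4.32%. Among the members 3 of 66 passed, or 4.55%, which is close to that share. In all 3 the host was higher with shPGC-1alpha and the microRNA probe set was not. BID, a pro-apoptotic member of the BCL2 family, had 8.50, 8.42 and 8.39 with shPGC-1alpha, against 7.82, 7.83 and 7.83 with shGFP, while MIR3198-1 inside it fell. MIR3198-1 minus BID was -1.65 (SE 0.18, adjusted p 0.00108). KAT2B had 6.71, 6.68 and 6.55 with shPGC-1alpha, against 6.0003, 5.99 and 5.86 with shGFP. MIR3135A minus KAT2B was -1.09 (SE 0.17, adjusted p 0.00826). MIR3135A reached a mean of 6 only through its shGFP arrays, so its part in the count of 3 is tied to the choice by level. TMEM164 had 8.59, 8.60 and 8.48 with shPGC-1alpha, against 7.73, 7.65 and 7.64 with shGFP. MIR3978 inside it had 6.61, 6.90 and 6.67 with shPGC-1alpha, against 6.94, 6.91 and 6.65 with shGFP, and these arrays overlapped. MIR3978 minus TMEM164 was -0.99 (SE 0.17, adjusted p 0.00968). All 3 pairs passed in each of the 13 alternative fits run on the pairs.

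Other pairs differed without passing. MIR330 minus the microtubule-binding EML2 was -0.62 (adjusted p 0.0608), with EML2 itself 0.28 higher. MIR579 minus ZFR was 0.86 (adjusted p 0.0799) and 1.12 without shGFP replicate 1 (adjusted p 0.0151). MIR33B and SREBF1 were higher by 0.35 and 0.17, and SREBF1 did not pass (adjusted p 0.132). MIR21 stayed close to its neighbour VMP1, whose transcript runs through it: their differences were 0.13 and 0.23, and only that of VMP1 passed (adjusted p 0.0429).

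**Figure D3:**
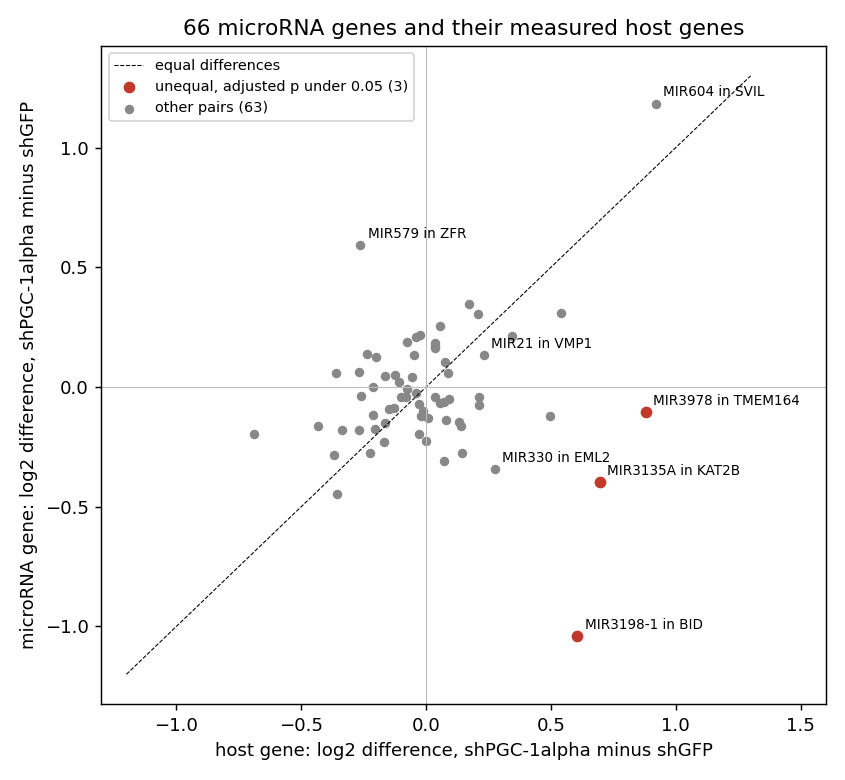
The log2 difference of each microRNA gene (vertical) against that of its measured same-strand host gene (horizontal), both shPGC-1alpha minus shGFP, for 66 pairs. Points on the dashed line would have equal differences, and the 3 red pairs, MIR3198-1, MIR3135A and MIR3978 with their hosts, passed the test for unequal differences. MIR3135A is included only through the level of its shGFP arrays.

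The let-7 family, known for holding back growth genes, had 11 named genes, 5 of which were members. All 5 carry the seed GAGGUAG, and 2 of them rose. MIRLET7D had 6.88, 6.85 and 6.96 with shPGC-1alpha, against 6.38, 6.49 and 6.74 with shGFP, a difference of 0.36 (SE 0.10, adjusted p 0.0419). MIRLET7I had 7.47, 7.60 and 7.52 with shPGC-1alpha, against 7.34, 7.23 and 7.30 with shGFP, a difference of 0.24 (SE 0.07, adjusted p 0.0442). The groups were separate in both genes, but neither call was stable: that of MIRLET7I was lost on the omission of each of the 6 arrays, and that of MIRLET7D on the omission of each array other than shGFP replicate 3. The other members did not pass, with differences of -0.02 for MIRLET7A3, -0.07 for MIRLET7E and -0.17 for MIR98. MIRLET7D lies within 10 kb of MIRLET7A1 and MIRLET7F1 in the transcript MIRLET7A1HG, and those neighbours, dimmer at means of 5.17 and 4.19, differed by -0.17 and -0.13 and did not pass. MIRLET7F2, the cluster neighbour of MIR98, was lower at -0.39 (adjusted p 0.0151), at a mean of only 1.495.

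The miR-181 family had 6 named genes and 4 members. MIR181B1 and MIR181B2 encode the same mature miR-181b from different chromosomes. MIR181B2 was at -0.90, while MIR181B1 had 6.84, 6.73 and 6.93 with shPGC-1alpha, against 6.98, 6.96 and 6.98 with shGFP, a difference of -0.14 (SE 0.07) that did not pass. Whether the differences of the pair are unequal was not tested. MIR181C and MIR181D, side by side on chromosome 19, were at -0.08 and -0.04. The neighbour of MIR181B2, MIR181A2, had 4.16, 4.28 and 4.12 with shPGC-1alpha, against 5.73, 4.17 and 4.72 with shGFP, again with shGFP replicate 1 highest. The transcript that holds both, MIR181A2HG, had 7.04, 6.76 and 6.70 with shPGC-1alpha, against 7.60, 7.27 and 7.04 with shGFP. Their differences of -0.69 and -0.47 had the sign of MIR181B2 and did not pass (adjusted p 0.217 and 0.0733).

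**Figure D4:**
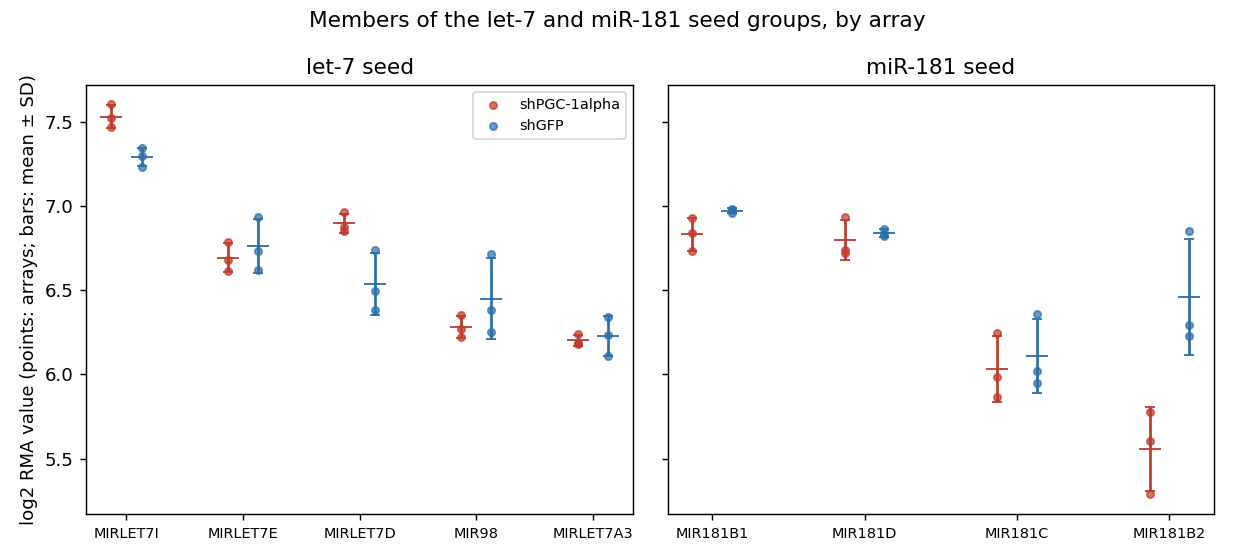
The log2 RMA value (vertical) of the 5 members with the let-7 seed (left) and the 4 with the miR-181 seed (right). Points are arrays, and bars give the mean and SD of 3 arrays, shPGC-1alpha in red left of shGFP in blue. In the left panel MIRLET7D and MIRLET7I are higher with shPGC-1alpha, and in the right panel MIR181B2 is lower by 0.90 while the others differ by 0.14 or less.

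In all, 11 seeds were shared by more than 1 member, over 22 members. MIR330, which fell, shares the seed CUCUGGG with MIR326, which was at 0.03. MIR21 shares AGCUUAU with MIR590, and these were at 0.13 and 0.05. By position, 30 members lay within 10 kb of another named microRNA gene on the same strand, in 21 clusters, of which 7 held more than 1 member. MIR424 and MIR503, of the miR-15/16 group that restrains the cell cycle, share a cluster on chromosome X. MIR424 had 7.52, 7.36 and 7.41 with shPGC-1alpha, against 7.62, 7.57 and 7.62 with shGFP, and MIR503 was at -0.27. Neither passed (adjusted p 0.12 and 0.149), while MIR542 in the same cluster, at a mean of only 3.11, was at -0.29 and passed (adjusted p 0.0427). Other dim cluster neighbours of members passed in the other direction. MIR660, beside MIR500B and MIR502, was at 0.36 (mean 3.81, adjusted p 0.0451). MIR1185-1, in the cluster of MIR412, was at 0.43 (mean 2.54, adjusted p 0.0202). In the MIR99B cluster on chromosome 19, MIR99B was at -0.19 and MIRLET7E at -0.07.

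Several families known in kidney epithelium were dim on these arrays. None of the 5 named miR-200 genes, the 4 of the miR-192 group, the 6 of miR-30 or the 2 of miR-204 reached a mean of 6, and the highest mean of the miR-200 genes was 5.09. MIR30C2, just below the limit, had 5.34, 5.66 and 5.73 with shPGC-1alpha, against 6.78, 6.31 and 6.0035 with shGFP, and fell by 0.79 on the log2 scale (adjusted p 0.0277). Other genes of the listed families that passed at means under 6 were also lower: MIR29C at -0.68 (adjusted p 0.0223), MIR23B at -0.37 (adjusted p 0.0321) and MIRLET7F2 of the let-7 family. Over all 882 microRNA genes under 6 the calls went both ways, with 21 higher (2.38%) and 23 lower (2.61%). MIR210, which hypoxia is known to raise, had 7.005, 7.08 and 7.28 with shPGC-1alpha, against 7.25, 7.17 and 7.21 with shGFP, and did not pass (adjusted p 0.509). The single members of other families also did not pass: MIR92B was at 0.27, MIR24-2 at 0.13, MIR449B at -0.04 and MIR99B as given above.

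Of 29 listed genes of microRNA processing, 16 were named on the array, and 2 were higher and 1 lower, a share of 18.8% against 21.8% of all named genes. DROSHA, DICER1 and the Argonaute genes AGO1, AGO2, AGO3 and AGO4 were not among the 16, so these core steps were not measured. ZC3H12A, a ribonuclease that can cut precursor hairpins and also inflammatory messenger RNAs, had 9.62, 9.54 and 9.60 with shPGC-1alpha, against 7.52, 7.49 and 7.60 with shGFP. That is a difference of 2.05 (SE 0.06, adjusted p 9.51e-06) between groups that lay far apart. PARN, a ribonuclease that trims 3′ ends including those of some small RNAs, had 8.16, 8.17 and 8.12 with shPGC-1alpha, against 8.73, 8.88 and 8.83 with shGFP. Its difference was -0.66 (SE 0.07, adjusted p 0.00068). The Argonaute partner TNRC6A was 0.31 higher (adjusted p 0.0288) and kept its call in only 1 of the 6 single-array omissions, that of shGFP replicate 1. DGCR8 and the exporter XPO5 were at -0.19 and -0.07 and did not pass. Among 11 measured host transcripts of microRNAs, 1 was higher and 1 lower, where 21.8% of all named genes passed. MIR4435-2HG was 0.66 higher and MIR924HG 0.54 lower on the log2 scale, with adjusted p of 0.00059 and 0.0272.

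The choice by level went with base composition. The hairpins of the members had a median G and C content of 60.6% of bases (quartiles 52.2 and 66.3, n = 151 with a hairpin sequence), against 46.1% (40.5 and 54.0, n = 726) in the microRNA genes under 6. Single members varied widely, from 27.3% to 80.0%, and 31 of the 151 were under 50%. The share of microRNA genes with a mean of at least 6 climbed with it. It was 4.05% of the 173 genes under 40% G and C, 8.77% of 308 from 40% to under 50%, 17.3% of 249 from 50% to under 60%, 47.9% of 121 from 60% to under 70% and 69.7% of 33 from 70%. Over all 884 microRNA genes with a hairpin sequence the mean level and the G and C content had r = 0.633 and rho = 0.656, a description across genes that share the same 6 arrays. Among the members alone, whose range of levels is cut by the limit of 6, r was 0.0035. In the 726 microRNA genes under 6 it was 0.625. The difference between the groups does not enter these values, and the part of base composition in the choice of members was not tested.

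**Figure D5:**
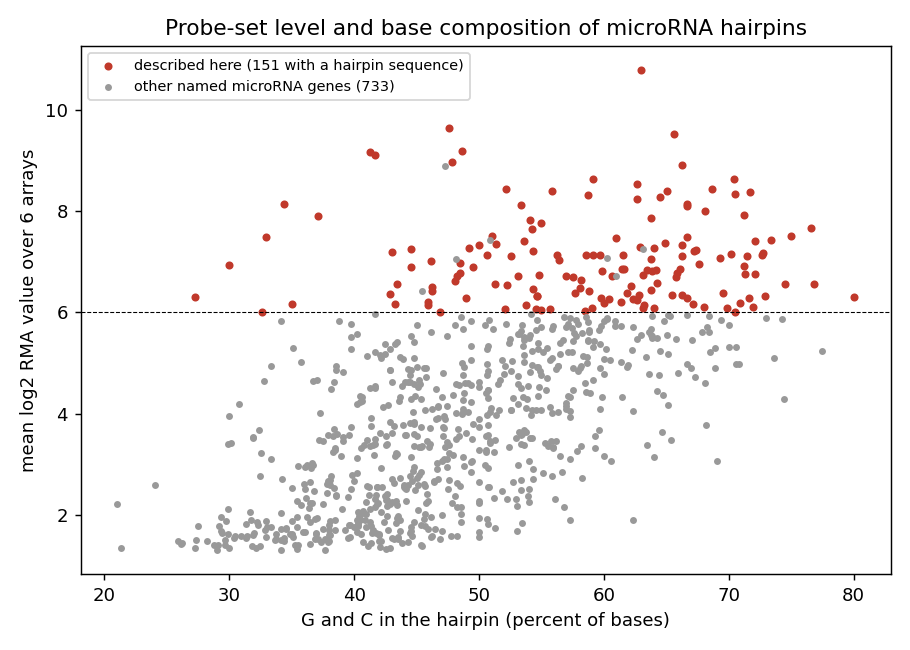
The mean log2 RMA value over 6 arrays (vertical) against the percent of G and C in the hairpin (horizontal) for 884 named microRNA genes. Red points are the 151 genes described here that have a hairpin sequence, grey points the 733 others, and the dashed line marks the limit of 6. Few genes under 40% G and C pass it and most from 70% do.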

How the data were processed

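Total RNA of HK2 cells was hybridised to 6 Affymetrix arrays, 3 per group, and the authors deposited log2 values of 53617 probe sets. The submitters' processing notes name RMA and Affymetrix Expression Console, with no version stated. RMA corrects background, equalises the arrays' distributions and summarises probes, so a shift of most transcripts in one direction would be reduced. Values ran from 0.66 to 13.8 with array medians of 5.00 to 5.04, and precision is limited by having 3 arrays a group. The platform annotation gave 1 symbol for 16098 probe sets and none for 37519, which made 14884 genes. The model was fitted to all 14884 with limma 3.58.1 (R 4.3.3; lmFit, then eBayes), with no filter and no block, and p-values were adjusted by Benjamini-Hochberg at 0.05. Differences of microRNA minus host were fitted over 301 pairs in the same way. Hosts, neighbours (within 10 kb for clusters) and sequences came from RefSeq, GRCh38.p14. The procedure was tested on simulated data. Named genes were the members past the threshold, the 10 brightest, those next to the limit, those sharing a cluster, seed or host with a passing member, listed families and passing processing genes. MIR3978, MIR579, MIR4295, MIR548H3, their hosts, DGCR8 and XPO5 were named after their values were seen. The members and lists were chosen with earlier results of these data known.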

Additional observations from a re-analysis of the deposited data

How the results depend on the processing

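The direction of all 17 microRNA genes held in the 14 alternative fits and that of the 3 host pairs in 13, and calls of some genes were lost. Leaving out 1 array gave 9 to 17 members past the threshold (17 with all arrays), 3 to 8 higher and 6 to 13 lower. Over all named genes these omissions gave 2328 to 2578 calls, against 3243 with all arrays. With 1 array left out, host pairs numbered 3 to 4, processing genes 2 to 3, and the median difference ran from -0.08 to -0.02. Without shPGC-1alpha replicate 3, 9 members passed, all among the 17, and without shGFP replicate 2, 11 passed. Fitting all 53617 probe sets together, which adjusts over more tests, gave 6 members (3 higher, 3 lower) and 1737 of all named genes. For host pairs it was not run, since the pair fit holds only the pairs. A variance with a trend on the mean gave 25 members past the threshold, 17 of them lower, and 3970 of all named genes. A filter at the 20th percentile of the named genes gave 5 host pairs, with MIR330 and MIR579 added to the 3. A limit of 5 for the mean held 349 microRNA genes, of which 25 passed, 17 of them lower. A limit of 7 held 74, of which 8 passed, 4 higher and 4 lower. Centring each array on its median gave a median difference of 0.01, against -0.04. The replicate numbers were not shown to pair the arrays: deviations of same-numbered arrays correlated at 0.117, 0.0874 and 0.023, although each shPGC-1alpha array correlated best with its own number. With a replicate block 17 members passed, 6 higher and 11 lower, 14 of them among the 17, and 2773 of all named genes passed. Among single genes and pairs 224 recomputed values kept their side of the threshold and 53 lost it.

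The arrays carry no detection calls, so a dim probe set cannot be told from background, and each group's 3 arrays limit what can be called. Of the members 35 have more than 1 probe set, and the brightest was used. The call of MIR573 and MIR181B2 was lost with all probe sets in the fit (adjusted p 0.0505 and 0.0515).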
